A study of Rattus norvegicus with 3 samples.

Results

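The pericytes of the rat heart apex were described here from 851 of 24664 nuclei in a single-nucleus RNA sequencing (snRNAseq) experiment, which counts transcripts one nucleus at a time. They were chosen by their counts. A nucleus counted as a pericyte when its summed UMIs (unique molecular identifiers, each standing for 1 captured transcript molecule) of Rgs5, Kcnj8, Notch3 and Pdgfrb came to at least 4 and exceeded the sum of the smooth muscle genes Myh11, Acta2, Tagln and Cnn1. Limits were also set on other cell types: under 0.4% of UMIs from the cardiomyocyte genes Actn2, Rbm20, Cmya5 and Mlip, at most 1 UMI from the fibroblast genes Dcn, Pdgfra and Bicc1, and at most 2 UMIs from the endothelial genes Flt1, Ptprb and Cyyr1. The levels of these genes in the chosen nuclei were therefore set by the choice and are given as a description.

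The study compared 3 genotypes of Sprague Dawley rat at 12 months of age with 1 snRNAseq library each. WT rats carried an intact Dmd gene, BMD rats a deletion of Dmd exons 45 to 47 as a model of Becker muscular dystrophy, and DMD rats a deletion of exon 52 (R-DMDdel52) as a model of Duchenne muscular dystrophy. The mutations are in the germline, so pericytes, cardiomyocytes and every other cell of a BMD or DMD animal carry them. The apex held part of the septum and of both ventricles, nuclei were stained with DAPI and sorted without selection for a cell type, and how many animals entered a library is not given in the labels.

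The libraries held 21609238 UMIs (WT), 21142346 UMIs (BMD) and 19215994 UMIs (DMD), and the 9964, 6810 and 7890 barcodes with most UMIs were taken as nuclei, down to 513, 525 and 546 UMIs. The pericytes numbered 368, 233 and 250, with 328080, 255936 and 248635 UMIs in sum and a median of 798.5, 990 and 911 UMIs and 626.5, 741 and 694 genes per nucleus. They were shallower than the other nuclei of their library, whose medians were 1246, 1522 and 1252.5 UMIs. With 1 library per genotype there is no replicate check and no test between genotypes. The 95% intervals below cover counting error within these libraries only, and a difference between libraries cannot be told apart from a difference between genotypes.

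Pericytes are mural cells that sit in the basement membrane of capillaries, in contact with the endothelium. Endothelial PDGF-B draws them to vessels through the receptor PDGFRB, and Notch ligands on the endothelium act on NOTCH3, whose cleaved domain binds the transcription factor RBPJ. In the heart they carry an ATP-sensitive potassium channel, built from the pore subunit Kcnj8 (Kir6.1) and the sulfonylurea receptor Abcc9 (SUR2), which links their membrane potential to metabolism. They grade into vascular smooth muscle cells, the contractile mural cells of arterioles and arteries.

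The label was checked against marker genes outside the rule. Of the 25 pericyte markers not used in the rule, 21 had a higher level in the chosen nuclei than in all other nuclei in each of the 3 libraries. The exceptions were Colec11, Atp13a5, the potassium channel gene Kcnk3 and the intermediate filament gene Des. Des stood at 85.3, 121 and 68.4 CPM in the chosen nuclei and at 105, 167 and 116 CPM in all other nuclei, and Kcnk3 at 6.10, 11.7 and 0 CPM against 59.8, 75.7 and 40.0 CPM. Their summed level was 20245, 19544 and 20737 CPM (UMIs of a gene per 1000000 UMIs of the nuclei summed) in WT, BMD and DMD, against 2784, 2805 and 3123 CPM in all other nuclei. Abcc9 had the most UMIs among them in WT, with 2108, 1524 and 1648 UMIs in the 3 libraries (6425, 5955 and 6628 CPM). Ebf1 had the most in BMD and DMD, with 1906, 1632 and 1711 UMIs. After each nucleus was thinned to 500 UMIs, an Abcc9 UMI was found in 92.1%, 89.7% and 92.0% of pericytes and in 3.51%, 2.65% and 2.37% of endothelial nuclei, which should lack it and had medians of 868, 1201 and 1041 UMIs before thinning. Without thinning, the shares were 96.7%, 97.0% and 98.0% of pericytes. Among the genes of the rule, the thinned share with a UMI was 80.2%, 75.5% and 80.0% for Rgs5, a regulator of G protein signalling, and 69.3%, 66.5% and 73.2% for Pdgfrb. It was 52.2%, 41.6% and 44.4% for Notch3 and 124 of 368, 57 of 233 and 75 of 250 nuclei for Kcnj8, so that Kcnj8 was missed in more nuclei than it was seen in. Unthinned shares were higher, at 92.9%, 91.0% and 94.0% for Rgs5 and 47.6%, 40.3% and 49.2% for Kcnj8.

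Markers of other cell types were mostly present at low levels. Endothelial markers outside the rule came to 384, 367 and 708 CPM in WT, BMD and DMD pericytes, against 7595, 6490 and 7831 CPM in endothelial nuclei, and Eng had the most UMIs. Fibroblast markers came to 1372, 1450 and 1798 CPM, led by Col3a1, against 10607, 9382 and 13239 CPM in fibroblast nuclei. Cardiomyocyte markers, led by Ryr2, came to 1241, 1872 and 1524 CPM against 13266, 16840 and 11300 CPM in all other nuclei. None of the endothelial, fibroblast and cardiomyocyte markers was higher in pericytes than in all other nuclei in all 3 libraries. Immune markers, led by Ptprc, came to 540, 426 and 607 CPM with the B cell gene Ms4a1 at 0. All other nuclei held 692, 704 and 823 CPM of them, so the immune list was not far lower in pericytes. Endothelial nuclei held 435, 328 and 541 CPM, fibroblast nuclei 257, 357 and 419 CPM and smooth muscle nuclei 445, 104 and 1051 CPM. The rule set no limit on immune genes. Lymphatic markers, led by Reln, came to 149, 121 and 169 CPM, and endocardial markers, led by Hmcn1, came to 57.9, 50.8 and 157 CPM with Plvap at 0. The glial genes Cdh19, Sox10 and Kcna1 were at 0. The adipocyte genes Plin1, Adipoq and Cidec were at 0 too, and that list stayed at or under 8.04 CPM, with Pnpla3 giving its UMIs.

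**Figure D1:**
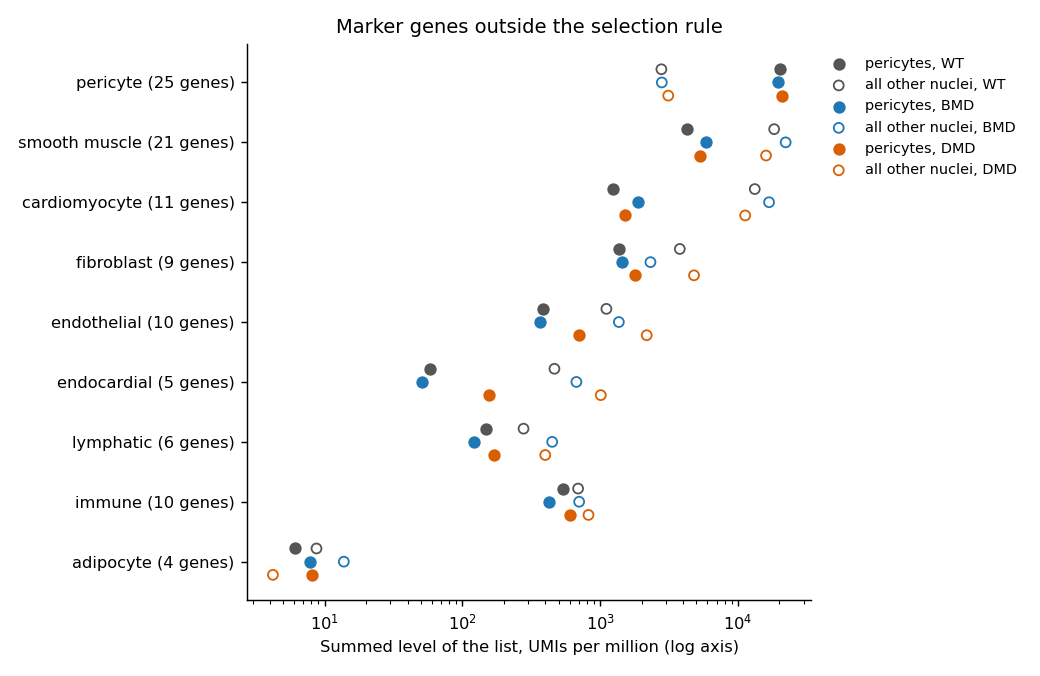
Summed level of the marker genes outside the rule, in CPM on a log axis, for pericytes and for all other nuclei of the WT, BMD and DMD libraries, 1 library per genotype. The pericyte list stands between 19544 and 20737 CPM in pericytes and between 2784 and 3123 CPM in the other nuclei, and fibroblast, endothelial and cardiomyocyte lists are lower in pericytes than in the other nuclei.

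Smooth muscle markers were an exception in part. Of the 21 smooth muscle markers outside the rule, 5 were higher in pericytes than in all other nuclei in the 3 libraries (Lmod1, Smtn, Mylk, Cald1 and Myl9), and Cald1, an actin-binding regulator of contraction, had the most UMIs (283, 258 and 268). Cnn1 was at 0, which allows up to 9.14, 11.7 and 12.1 CPM in the pericytes of the 3 libraries, as for any gene given at 0 there. The list summed to 4264, 5857 and 5325 CPM in pericytes and to 21221, 27135 and 24675 CPM in 80 smooth muscle nuclei (25 WT, 32 BMD and 23 DMD), chosen with the same rule and the 2 mural sums exchanged.

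The rule leaves nuclei close to its edges. In WT, BMD and DMD, 61, 39 and 32 members had exactly 4 UMIs of the 4 pericyte genes, the median member had 6, 7 and 8, and 79, 41 and 48 nuclei met every other limit with 3 UMIs. An UMI of each of the 4 genes was present in 97, 46 and 62 members. The limit on fibroblast UMIs took out 25.6%, 28.7% and 35.6% of the nuclei that had passed the pericyte, smooth muscle and cardiomyocyte steps. Those that met all limits but this one numbered 122, 89 and 125 and held 5982, 6057 and 8206 CPM of fibroblast markers outside the rule, over 4 times the level in members. Doublets were scored but not removed: Scrublet called 8.35%, 5.10% and 10.8% of all nuclei and 11, 4 and 15 of the pericytes. The WT and BMD libraries shared 1 pericyte barcode, and the other pairs shared 0.

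The proximal promoters of the channel pair and of Ednrb, the endothelin B receptor, are shown because Kcnj8 and Abcc9 mark these nuclei and Ednrb stood among the genes with the highest ratios in DMD pericytes (values below). They are the 250 bases before the start of transcription in RefSeq on GRCr8, 5′ to 3′ on the strand of the gene, at chr4:177246549-177246798 (minus strand) for Kcnj8, chr4:177386349-177386598 (minus strand) for Abcc9 and chr15:87086766-87087015 (minus strand) for Ednrb. Capitals mark the core letters TGGGAA of the RBPJ motif.
Kcnj8: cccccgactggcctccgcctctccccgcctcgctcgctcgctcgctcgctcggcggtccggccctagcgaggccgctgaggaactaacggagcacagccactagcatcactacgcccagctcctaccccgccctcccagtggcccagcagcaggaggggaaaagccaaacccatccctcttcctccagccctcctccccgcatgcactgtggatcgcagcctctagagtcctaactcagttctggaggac
Abcc9: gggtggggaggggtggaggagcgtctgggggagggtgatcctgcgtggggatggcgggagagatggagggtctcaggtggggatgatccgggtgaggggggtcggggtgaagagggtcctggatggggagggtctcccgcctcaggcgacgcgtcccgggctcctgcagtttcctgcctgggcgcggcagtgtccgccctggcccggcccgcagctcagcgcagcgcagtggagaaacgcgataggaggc
Ednrb: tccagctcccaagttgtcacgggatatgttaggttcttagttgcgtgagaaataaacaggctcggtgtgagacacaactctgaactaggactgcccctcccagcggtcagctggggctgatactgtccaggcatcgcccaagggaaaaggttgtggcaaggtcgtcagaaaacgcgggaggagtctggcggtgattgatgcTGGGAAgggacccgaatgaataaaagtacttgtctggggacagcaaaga
The search covered 250 bases before to 50 after the start on both strands, for TGGGAA and for the CArG box of serum response factor (CC, 6 letters A or T, GG), and the 2 motifs can share letters at their ends. TGGGAA stood in 25.7% of 33469 promoters of this length, in 1 of 4 pericyte genes that could be matched (Notch3, and not Rgs5, Kcnj8 or Abcc9), and in 6 of the 23 matched genes with the highest or lowest genotype ratios (Adgra3, Colec12, Ednrb, Rpn2, S100a9 and Xirp2). The CArG box stood in 1.64% of all promoters, in 0 of the 4 and in 1 of the 23 (Lgr4). Matches are a description of these windows.

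Pericytes made up 3.69% of WT nuclei (368 of 9964, exact Clopper-Pearson 95% interval 3.33 to 4.08%), 3.42% of BMD nuclei (233 of 6810, 3.0 to 3.88%) and 3.17% of DMD nuclei (250 of 7890, 2.79 to 3.58%). The BMD share was lower than the WT share by 0.272 percentage points (difference -0.272, Newcombe interval -0.834 to 0.307) and the DMD share by 0.525 points (difference -0.525, -1.06 to 0.016), and both intervals include 0. Before the fibroblast and endothelial limits the shares were 5.22%, 4.96% and 5.31%. The order changed with the depth required. Among nuclei with at least 1000 UMIs pericytes made up 1.72%, 2.27% and 1.99% in WT, BMD and DMD, so that WT was then the lowest. With every nucleus thinned to 500 UMIs before the rule, the shares were 2.70%, 1.92% and 2.19%, and WT was the highest. No direction of the share was read from these libraries.

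The genes that separated pericytes from smooth muscle nuclei were the same way round in all 3 libraries, by the rule that ranked them. The cyclic AMP phosphodiesterase Pde8b had 240, 151 and 194 UMIs in WT, BMD and DMD pericytes (732, 590 and 780 CPM) and 0 UMIs in the smooth muscle nuclei of each library, where a count of 0 (taken as up to 3 counts) allows up to 121.5, 77.97 and 101.7 CPM. Next in that ranking came the phospholipase D family member Pld5, the scramblase family member Xkr4, the kinase Mapk10, the metalloreductase Steap4 and the ether lipid hydrolase Agmo. Xkr4 reached 2338, 1418 and 1935 CPM in pericytes, while smooth muscle nuclei held 0, 2 and 4 UMIs of it. Plxdc2, Pdzd2, Sipa1, Dlgap1, the UDP-glucose receptor P2ry14, Lrrc4c, Snrk, Abcc9 and the angiotensin-cleaving peptidase Enpep completed the 15 genes on the pericyte side. Abcc9 had 6425 CPM in WT pericytes and 202 CPM in WT smooth muscle nuclei. Mitochondrial transcripts made up 4.76% of UMIs in the 25 WT smooth muscle nuclei, against 0.824% and 1.09% in those of BMD and DMD, and their part in these ratios was not tested.
On the smooth muscle side, Myh11, Acta2 and Tagln belong to the rule. The others were the neurotrophin receptor Ntrk3, the guidance ligand Slit3, the potassium channel genes Kcnma1 and Kcnab1, Kank1, Stac, Ltbp1, Sorbs2, Sox6, Zbtb7c, the actin filament nucleator Lmod1 and Myocd, the coactivator that drives the smooth muscle programme. Kcnma1, the large-conductance calcium-activated potassium channel, had 3, 1 and 0 UMIs in the 368, 233 and 250 pericytes and 19 UMIs in 25 WT smooth muscle nuclei.

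Contractile genes were also set beside the few smooth muscle UMIs that the rule let through, a split on genes of the rule that is given as a description. The 16, 28 and 30 members with 1 or more UMIs of the smooth muscle genes of the rule held 14636, 16877 and 13375 CPM of contractile genes outside the rule, against 9467, 11027 and 10826 CPM in the 352, 205 and 220 members with none. Pericyte genes outside the rule were at 32350, 27117 and 31102 CPM in the first set and 32947, 32629 and 32510 CPM in the second. The first set was deeper, at medians of 1080.5, 1083.5 and 1115.5 UMIs against 782.5, 989 and 899.5, and the part of depth was not tested.

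UMIs were summed over the pericytes of a library for the comparison of genotypes, and 3661 genes with at least 50 UMIs over the 3 libraries were compared as CPM ratios with exact 95% counting intervals. In BMD over WT, 63 genes (1.72% of those compared) were at least 2-fold higher and 92 genes (2.51%) at least 2-fold lower. In DMD over WT, 64 genes (1.75%) were at least 2-fold higher and 67 genes (1.83%) at least 2-fold lower. The median log2 ratio of all compared genes was -0.00 in BMD and -0.02 in DMD. The interval lay wholly past 2-fold for 6 higher and 1 lower genes in BMD and for 7 higher and 1 lower genes in DMD, so that most of the genes past 2-fold have a counting interval that reaches below it. With free RNA subtracted, 149 genes were higher and 117 lower in BMD and 140 higher and 119 lower in DMD. The side with more genes thus turned in both mutants. A gene with few UMIs in 1 library could pass the minimum of 50 only through the libraries where it is high. Both comparisons share the WT library, whose counts enter each ratio, and the values of BMD and DMD are therefore given side by side without reading their likeness.

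The 4 pericyte genes of the rule come first, as a description of levels that the choice of nuclei set. Pdgfrb had 773, 602 and 580 UMIs in WT, BMD and DMD pericytes, or 2356, 2352 and 2333 CPM. Rgs5 stood at 3496, 2997 and 3813 CPM and Notch3 at 1366, 1117 and 1267 CPM. Kcnj8 had 256, 130 and 202 UMIs (780, 508 and 812 CPM). No comparison of genotypes is drawn from these 4 genes. The channel partner of Kcnj8, Abcc9, which the rule did not use, had log2 ratios of -0.11 and 0.04.
Of 34 pericyte genes outside the rule with at least 50 UMIs, of 47 listed, 2 were at least 2-fold higher in BMD (1.72% of all genes) and 2 in DMD (1.75%), and 0 were 2-fold lower in either. By counting interval, 4 lay above 0 and 7 below in BMD (6.75% of all genes on each side), and 4 above and 6 below in DMD (5.87% and 6.36%). Their median log2 ratios were -0.08 and -0.16. Both comparisons had Ednrb and Rgs7bp on the higher side. Ednrb had 19, 39 and 50 UMIs (57.9, 152 and 201 CPM; log2 ratio 1.40, 0.57 to 2.27, and 1.80, 1.01 to 2.64) and was seen in 17, 27 and 36 nuclei. WT was the low library. After thinning to 500 UMIs an Ednrb UMI was present in 3.26%, 6.01% and 8.40% of pericytes and in 9.73%, 8.44% and 11.3% of endothelial nuclei, so the pericyte share was below the endothelial share in each library. Endothelial markers in the pericytes were at 384, 367 and 708 CPM, and their part in the Ednrb ratio was not tested. Cspg4, the NG2 proteoglycan by which pericytes are often recognised, had 137, 63 and 70 UMIs (418, 246 and 282 CPM; log2 ratio -0.76, -1.22 to -0.32, and -0.57, -1.01 to -0.14). Rgs4, a regulator of G protein signalling, had 94, 37 and 65 UMIs and was low in BMD only (-0.99, -1.58 to -0.42).

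Colec12, a scavenger receptor of the collectin family, had the lowest ratio in both mutants by the end of its interval nearer to 1. WT pericytes held 271 UMIs of it, BMD pericytes 74 and DMD pericytes 64, or 826, 289 and 257 CPM. The log2 ratio was -1.51 for BMD (-1.91 to -1.14) and -1.68 for DMD (-2.10 to -1.28), and the 3 counting intervals left WT apart from both mutants. A Colec12 UMI was present in 147 of 368 WT nuclei, 40 of 233 BMD nuclei and 42 of 250 DMD nuclei, although the mutant pericytes were deeper. After thinning to 500 UMIs the shares were 27.7%, 9.01% and 11.6%, against 1.17%, 1.69% and 1.78% of endothelial nuclei, so the gene lay above the endothelial level in each library. Without the nucleus that held the most UMIs of it in each library, the ratios were -1.57 and -1.73, and they stayed past 2-fold under all 16 alternatives that were computed, with -1.66 to -1.15 for BMD and -1.92 to -1.21 for DMD. In all other nuclei Colec12 was lower too, at 334, 221 and 244 CPM (log2 ratio -0.60 and -0.45), and in fibroblast nuclei at 810, 620 and 552 CPM.

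Gpc6, a cell-surface heparan sulfate proteoglycan, had the highest ratio in both mutants by the same measure. WT pericytes held 78 UMIs of it, BMD pericytes 354 and DMD pericytes 242, or 238, 1383 and 973 CPM, and log2 ratios of 2.54 (2.18 to 2.91) and 2.03 (1.66 to 2.42). WT was low and BMD high. In all other nuclei it stood at 1312, 993 and 1493 CPM (log2 ratio -0.40 and 0.19), much of it in fibroblast nuclei at 3534, 3791 and 4015 CPM, and smooth muscle nuclei held 3888, 7875 and 6982 CPM. With nuclei over the fibroblast limit added back the ratios were 0.91 and 0.75, so the 2-fold size depended on that limit. Those nuclei had 2604, 3163 and 2905 CPM of Gpc6.
The Gpc6 UMIs were concentrated in few nuclei. A Gpc6 UMI was found in 45, 61 and 72 pericytes, at most 6 in 1 nucleus in WT but 43 in BMD and 29 in DMD. Pericytes with at least 5 Gpc6 UMIs, a set chosen after its values were seen, numbered 2 of 368 in WT (0.543%, 0.066 to 1.95%), 21 of 233 BMD pericytes (9.01%, 5.67 to 13.4%) and 14 of 250 DMD pericytes (5.60%, 3.1 to 9.22%). Without them the log2 ratios of Gpc6 were 0.62 and 1.0, a fall that a cut on Gpc6 itself brings about by construction. Their median depth was 1015, 1243 and 1169.5 UMIs against 796.5, 986.5 and 904 in the other pericytes. Among smooth muscle nuclei 36.0%, 65.6% and 47.8% reached 5 UMIs. Thinned to 500 UMIs, 8.97%, 21.0% and 20.8% of pericytes held a Gpc6 UMI, against 1.62%, 2.41% and 4.0% of endothelial nuclei and 74.3%, 72.9% and 75.4% of fibroblast nuclei.

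**Figure D2:**
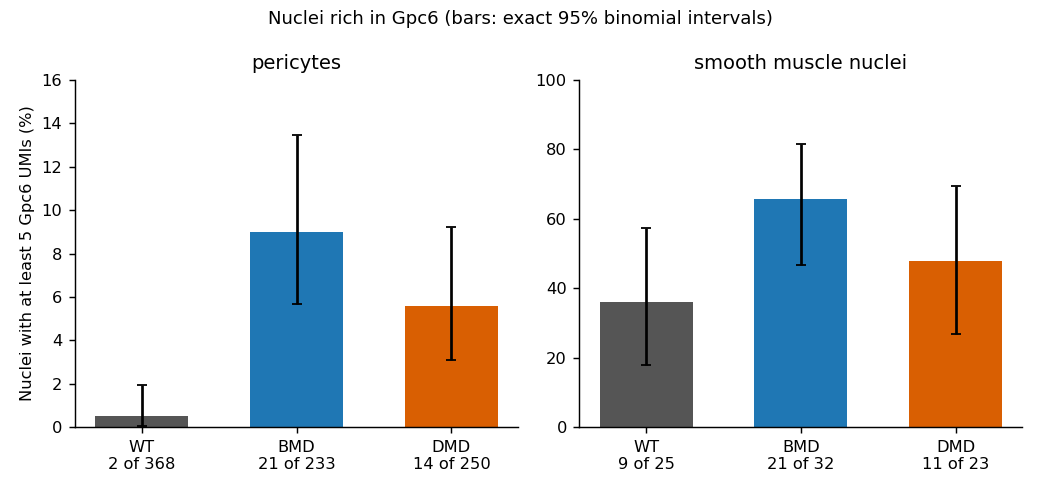
Share of nuclei with at least 5 Gpc6 UMIs, in percent, among pericytes and, on another axis range, among smooth muscle nuclei of the WT, BMD and DMD libraries, with exact 95% binomial intervals. The pericyte shares are 0.543%, 9.01% and 5.60% (2, 21 and 14 nuclei) and those of smooth muscle nuclei 36.0%, 65.6% and 47.8%.

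The Gpc6-rich pericytes lay between the other pericytes and smooth muscle nuclei for some genes and outside them for others. Contractile genes outside the rule summed to 18581 CPM in the BMD set and 17285 CPM in the DMD set, against 10961 and 10743 CPM in the other pericytes and 41665 and 38876 CPM in smooth muscle nuclei. Abcc9 stood at 3925 and 4609 CPM against 6240 and 6772 CPM in the other pericytes and 780 and 373 CPM in smooth muscle nuclei. The 25 pericyte markers outside the rule summed to 13105 and 19166 CPM against 20451 and 20849 CPM, so the DMD set was close to the other pericytes there. Rgs5, a gene of the rule, stood at 2089 CPM in the BMD set and 5216 CPM in the DMD set, below and above the 3125 and 3713 CPM of the other pericytes. Myh11, the smooth muscle myosin heavy chain, stood at 728 and 849 CPM against 66.9 and 112 CPM in the other pericytes, and as a gene of the rule it is not compared with smooth muscle nuclei. Fibroblast markers outside the rule were at 1551 and 1759 CPM in the Gpc6-rich and 1435 and 1801 CPM in the other pericytes, which is to say at a like level. The 2 WT nuclei held 2030 UMIs in all and are not described further.
With the BMD and DMD sets pooled (35 nuclei), the genes with the highest ratios to the other pericytes after Gpc6 itself, ranked by the interval end nearer 1, were Col12a1, Myh11, the oxysterol hydroxylase Cyp7b1, Parm1, Crim1 and Pde4d. Of the 50 Col12a1 UMIs in the pooled set, 32 came from 1 nucleus, and without it the level of Col12a1 there was 404 CPM in place of 1040 CPM. Cyp7b1 had 3102 and 1941 CPM in the BMD and DMD sets against 646 and 379 CPM in the other pericytes and 806 and 237 CPM in smooth muscle nuclei. The lowest by the same ranking were the phosphodiesterase Pde7b, Gna14, Igf1 and Xkr4. Pde7b had 317 and 485 CPM against 2710 and 2722 CPM, and 104 and 407 CPM in smooth muscle nuclei. Robo2 and Gna14 had 0 UMIs in both sets, which allows up to 94.96 and 182 CPM. The other pericytes held 183 and 224 CPM of Robo2 and 303 and 164 CPM of Gna14, so for Gna14 no difference was detectable in DMD at this depth. Igf1, the insulin-like growth factor, had 127 and 303 CPM against 798 and 1167 CPM. These values describe a set picked from the same counts, and no test was made of it.

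**Figure D3:**
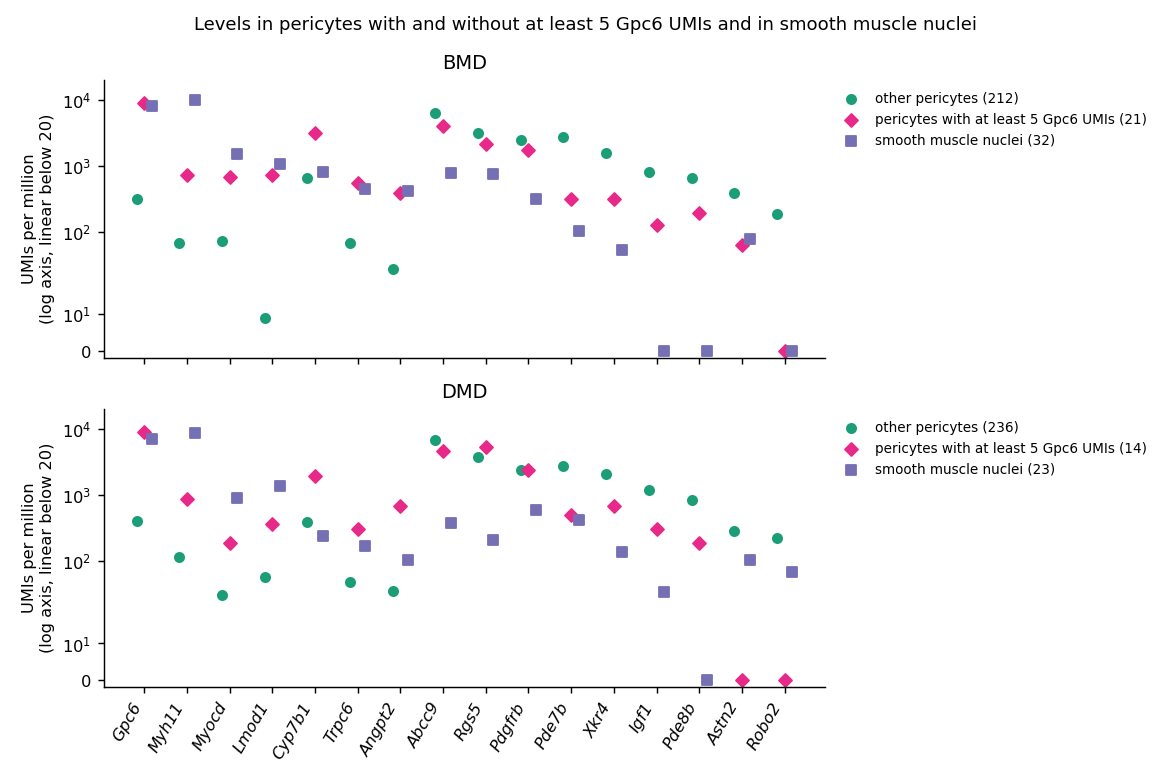
Level of selected genes, in CPM on a log axis that is linear below 20 CPM, in pericytes with at least 5 Gpc6 UMIs, in the other pericytes and in smooth muscle nuclei of the BMD and DMD libraries. Abcc9 stands at 3925 and 4609 CPM in the Gpc6-rich pericytes, between the other 2 groups, while Cyp7b1, at 3102 and 1941 CPM, lies above both, and Myh11, Rgs5 and Pdgfrb are genes of the rule that chose the groups.

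Trpc6, a cation channel opened by diacylglycerol downstream of Gq-coupled receptors, came next to Gpc6 in BMD, with 3, 32 and 16 UMIs in WT, BMD and DMD pericytes. The log2 ratio was 3.77 for BMD (2.10 to 6.12) and 2.82 for DMD (1.01 to 5.24), wide because WT held 3 UMIs. Trpc6 passed the minimum of 50 UMIs through the 2 mutant libraries, and it had a value in 8 of 16 alternatives. Of the 32 BMD UMIs, 17 lay in the 21 Gpc6-rich nuclei. Col12a1, a fibril-associated collagen, had 9, 58 and 26 UMIs (log2 ratio 3.05 and 1.93), but 32 of the BMD UMIs came from 1 nucleus, and without the top nucleus of each library the BMD value was 2.25 (1.01 to 3.70). Parm1 had 8, 36 and 19 UMIs (2.53 and 1.65). The smooth muscle coactivator Myocd had 14, 37 and 10 UMIs and was high in BMD only (1.76, 0.84 to 2.76), with 12 of the 37 in 1 nucleus.

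Zbtb16, a zinc finger transcription factor that glucocorticoids induce in many cells, was highest in DMD. Its UMIs numbered 133, 149 and 340 in WT, BMD and DMD pericytes, or 405, 582 and 1367 CPM. The log2 ratios were 0.52 (0.17 to 0.87) and 1.75 (1.46 to 2.05), and a Zbtb16 UMI was present in 27.2%, 41.6% and 70.8% of nuclei. After thinning the shares were 17.1%, 24.5% and 49.6%, against 24.1%, 28.9% and 39.9% of endothelial nuclei, which transcribe the gene as well. The DMD library was also high in the other nuclei (811, 908 and 1538 CPM; log2 ratio 0.92 in DMD) and in the 23 smooth muscle nuclei (324, 468 and 983 CPM).
Other genes with high ratios were at their lowest in WT. Tmem132d, a transmembrane protein known from neurons, had 71, 126 and 140 UMIs (1.19 and 1.38). Pkia, an inhibitor of protein kinase A, had 9, 28 and 33 UMIs (2.0 and 2.27). The polarity kinase Mark1 had 27, 56 and 60 UMIs (1.41 and 1.55). Ptn, the heparin-binding growth factor pleiotrophin, had 53, 87 and 110 UMIs (1.07 and 1.45). In DMD it was also higher in all other nuclei, at a log2 ratio of 1.26. The integrin subunit Itga9 had 12, 27 and 36 UMIs (1.53 and 1.98).

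Among the genes with the highest ratios, Cryab, Nppa, Xirp2 and Myl2 in BMD and S100a9 in DMD are known from cardiomyocytes or neutrophils. Nppa, the atrial natriuretic peptide, had 7, 26 and 21 UMIs in pericytes (log2 ratio 2.25 and 1.98). In all other nuclei its ratios were 2.69 and 2.17, and among barcodes with at most 50 UMIs, which hold free RNA, 3.11 and 2.56. Cryab, a small heat shock protein, had 7, 37 and 10 UMIs, with a BMD log2 ratio of 2.76 against 1.37 in all other nuclei and 1.31 in free RNA. Xirp2, a protein of the intercalated disc, had 9, 29 and 13 UMIs, at 2.05 in BMD pericytes and 1.73 in all other nuclei. Myl2, the ventricular myosin light chain, had 17, 43 and 18 UMIs, at 1.70 and 0.35. S100a9, a calcium-binding protein of neutrophils, had 10, 6 and 41 UMIs, with a DMD log2 ratio of 2.44 against 3.57 in all other nuclei and 2.77 in free RNA. The upper estimate of free RNA in pericyte UMIs was 12.3%, 9.81% and 11.4% in WT, BMD and DMD. Its subtraction was among the alternatives, and beyond that its part in these 5 ratios was not tested.

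On the lower side after Colec12, Dock8, a guanine nucleotide exchange factor known from leukocytes, had 53, 13 and 12 UMIs (log2 ratio -1.67 and -1.74), of which 14 WT UMIs came from 1 nucleus. Immune markers were at 540, 426 and 607 CPM in the pericytes, and their part was not tested. Over the alternatives the BMD ratio of Dock8 ran from -4.19, without the Gpc6-rich nuclei, to -0.91, with no fibroblast limit. The DMD ratio of Dock8 ran from -2.45 to -1.09. Ntm, a cell adhesion protein, had 55, 14 and 13 UMIs (-1.62 and -1.68), and it was also lower in all other nuclei (-1.57 and -0.77). Astn2, which acts in the trafficking of membrane proteins, had 196, 89 and 66 UMIs (-0.78, -1.16 to -0.41, and -1.17, -1.60 to -0.76). WT was the high library for these genes. The receptor Gfra2 had 35, 8 and 11 UMIs (-1.77 and -1.27).
Other genes were low in 1 mutant. In BMD, Hlf, a transcription factor of the PAR family, had 31, 5 and 19 UMIs (-2.27 and -0.31), and Lgr4, a receptor for R-spondins, had 34, 6 and 30 UMIs (-2.14 and 0.22). Rpn2, Dnajc8, Itm2c and Adgra3 completed the 10 BMD genes, with log2 ratios of -1.83, -2.13, -1.34 and -1.43 in BMD and -0.43, -0.16, -0.16 and -0.55 in DMD. The BMD value was -0.11 for Itm2c among barcodes with at least 1000 UMIs and -0.85 for Dnajc8 with no fibroblast limit. In DMD, Apaf1, the scaffold of the apoptosome, had 41, 26 and 8 UMIs (-0.30 and -1.96), and the exchange factor Vav2 had 63, 27 and 17 UMIs (-0.86 and -1.49). Gnai1 and Mpzl1 had DMD log2 ratios of -1.47 and -1.17. Gpm6a had 75, 31 and 22 UMIs, 22 of the WT UMIs in 1 nucleus, and a DMD ratio of -1.37 with it and -1.08 without.

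**Figure D4:**
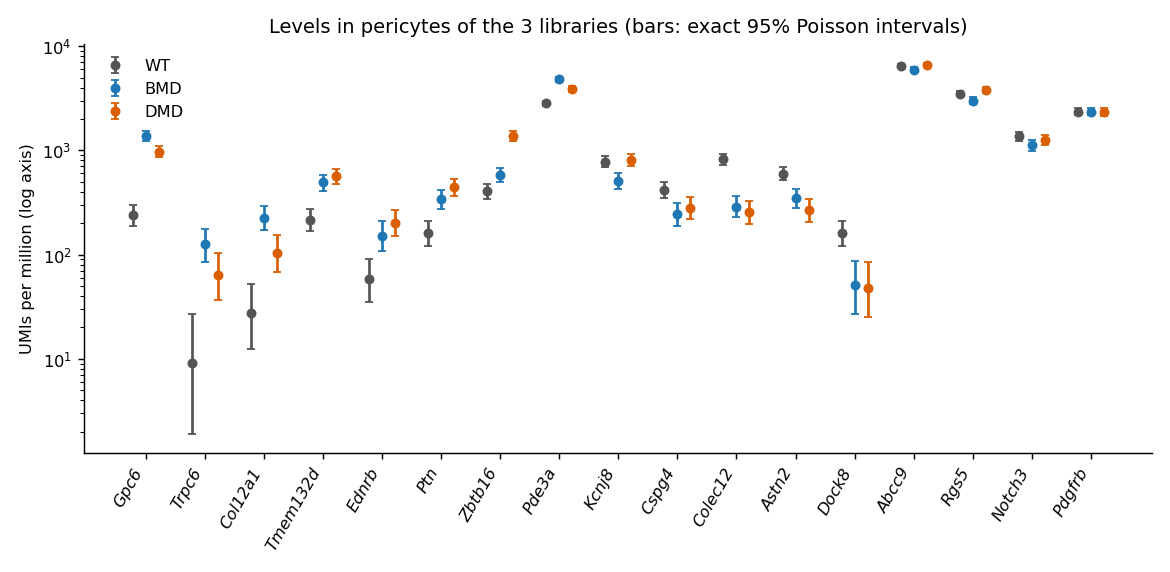
Levels of genes of the rule and of genes with high or low ratios, in CPM on a log axis, in WT, BMD and DMD pericytes, 1 library per genotype, with exact 95% counting intervals. Gpc6 stands at 238, 1383 and 973 CPM and Colec12 at 826, 289 and 257 CPM.

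The remaining genes were grouped by their role in a pericyte, and each list is read against the shares of all genes given above (1.72% and 2.51% in BMD, 1.75% and 1.83% in DMD). Contractile genes outside the rule had 28 members with at least 50 UMIs, with median log2 ratios of 0.25 in BMD and 0.22 in DMD. Myocd and Sorbs2 were past 2-fold higher and Smtn past 2-fold lower in BMD, and Tpm1 was past 2-fold higher in DMD. Tpm1, a tropomyosin, had 84, 126 and 130 UMIs (0.94, 0.53 to 1.36, and 1.03, 0.62 to 1.44). Sorbs2, an adaptor of the actin cytoskeleton, had 56, 107 and 73 UMIs (1.29 and 0.78). The adaptor Lpp, at 1131, 1200 and 1018 CPM, had ratios of 0.09 and -0.15. A counting interval above 0 was found for 8 of the 28 in BMD and 6 in DMD, and one below 0 for 2 and 0. Among all 3661 genes it lay above 0 for 6.75% in BMD and 5.87% in DMD and below 0 for 6.75% and 6.36%. Cardiomyocyte markers in the same pericytes were at 1241, 1872 and 1524 CPM, and several contractile genes are abundant in the other nuclei, where Tpm1 stood at 1673, 2271 and 1620 CPM and Myocd at 905, 928 and 491 CPM. Their part in these ratios was not tested.

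Ion channels and calcium handling genes had 22 members with medians of 0.00 and 0.05, and Trpc6, which passed the minimum only through the mutant libraries, was the 1 of these 22 past 2-fold. The sodium-calcium exchanger Slc8a1 had 332, 422 and 333 UMIs (1012, 1649 and 1339 CPM; 0.70, 0.49 to 0.92, and 0.40, 0.18 to 0.63), with WT lowest. In BMD, 32 of its UMIs lay in 1 nucleus. Without the top nucleus of each library the Slc8a1 ratios were 0.64 and 0.40. The part of cardiomyocyte transcripts in them was not tested. The calcium-activated chloride channel Ano1 had 332, 172 and 198 UMIs (1012, 672 and 796 CPM; -0.59, -0.86 to -0.32, and -0.35, -0.61 to -0.09), with WT highest. The ryanodine receptor Ryr2, which also leads the cardiomyocyte markers, had 564, 844 and 563 CPM and was high in BMD only.
Vasoactive receptors and cyclic nucleotide signalling had 30 members with medians of 0.05 and 0.03, and Ednrb was the 1 member past 2-fold, in both mutants. Pde3a, the phosphodiesterase that cyclic GMP inhibits, had 924, 1226 and 968 UMIs (2816, 4790 and 3893 CPM; 0.77, 0.64 to 0.89, and 0.47, 0.34 to 0.60). The 3 levels did not overlap within counting error, which does not cover the spread between nuclei. Of the 1226 BMD UMIs, 56 lay in 1 nucleus and 258 in the 21 Gpc6-rich pericytes. Without the top nucleus of each library the Pde3a ratios were 0.72 and 0.45. Gucy1a2, a subunit of the nitric oxide receptor, stood at 3773, 3770 and 3861 CPM, the same within counting error.

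Endothelial signals to pericytes and their replies had 32 members with medians of -0.10 and 0.01, of which 0 were past 2-fold in BMD and 1, Hgf, was lower in DMD. Hgf, the hepatocyte growth factor, had 75, 68 and 28 UMIs (0.22 and -1.02, -1.70 to -0.38), and its DMD value was under 2-fold in 5 of 15 alternatives, down to -0.48 with no fibroblast limit. Igf1 had 200, 183 and 276 UMIs and was high in DMD (0.86, 0.60 to 1.13). The Notch target Heyl had 126, 67 and 69 UMIs (-0.55, -1.0 to -0.11, and -0.47, -0.91 to -0.03), and the Notch coactivator Maml2 stood at 1786, 2047 and 1770 CPM (0.20 and -0.01). Nrp1, a coreceptor for VEGF, and Cdh2, the cadherin of contacts between pericytes and endothelium, were high in BMD, with 430, 672 and 475 CPM for Nrp1 and 287, 465 and 294 CPM for Cdh2. The product of Cdh2, N-cadherin, also served the study as a marker of the intercalated disc of cardiomyocytes. Cardiomyocyte markers in these pericytes were at 1241, 1872 and 1524 CPM, and their part in the Cdh2 level was not tested.

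Basement membrane and vessel matrix genes had 26 members with medians of 0.07 and 0.08. In BMD, Col4a5 and Itga9 were past 2-fold higher and Col4a3 past 2-fold lower, and in DMD Itga9 was past 2-fold higher. The type IV collagens were not all on one side. Col4a1 had 902, 1168 and 1174 CPM (0.37, 0.14 to 0.61, and 0.38, 0.14 to 0.62) and Col4a5 had 32, 59 and 48 UMIs (1.24 and 0.98). Col4a3 had 51, 17 and 24 UMIs (-1.23, -2.11 to -0.41, and -0.69, -1.45 to 0.04) and Col4a4 had 145, 62 and 91 UMIs (-0.87, -1.32 to -0.43, and -0.27). Col4a3 and Col4a4, whose chains assemble with that of Col4a5 into 1 protomer, thus stood on the other side from Col4a5 in BMD. The laminin chain Lama2 stood at 2207, 2333 and 2441 CPM.

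Fibrosis and myofibroblast genes had 22 members with medians of 0.03 and 0.05. Col12a1 was past 2-fold higher in both mutants and Timp2, an inhibitor of matrix metalloproteinases, in DMD (18, 22 and 35 UMIs; 1.36, 0.50 to 2.27). The fibrillar collagen Col5a2 had 302, 214 and 172 UMIs (-0.14 and -0.41). Periostin (Postn), a marker of activated fibroblasts, had 4, 3 and 14 UMIs and was under the minimum for a ratio.
The dystrophin complex had 12 members with medians of 0.10 and 0.15. Dmd itself, the mutated gene, had 917, 1411 and 1026 CPM in pericytes (301, 361 and 255 UMIs). Its log2 ratios were 0.62 (0.40 to 0.85) and 0.16 (-0.09 to 0.41). After thinning, a Dmd UMI was present in 37.5%, 47.6% and 37.6% of WT, BMD and DMD pericytes. The shares were 32.8%, 39.1% and 35.7% of endothelial nuclei and 26.9%, 34.1% and 27.4% of fibroblast nuclei. Intervals of the pericyte and endothelial shares overlapped in each library. The part of free RNA in the Dmd level of pericytes was not tested. The counts are per gene and do not report on single exons, so these values do not check the genotype labels. The Dmd paralogue Utrn stood at 2542, 2165 and 2936 CPM (-0.23 and 0.21). Dysf was the 1 member past 2-fold, in DMD (13, 20 and 25 UMIs; 1.34, 0.32 to 2.43).

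**Figure D5:**
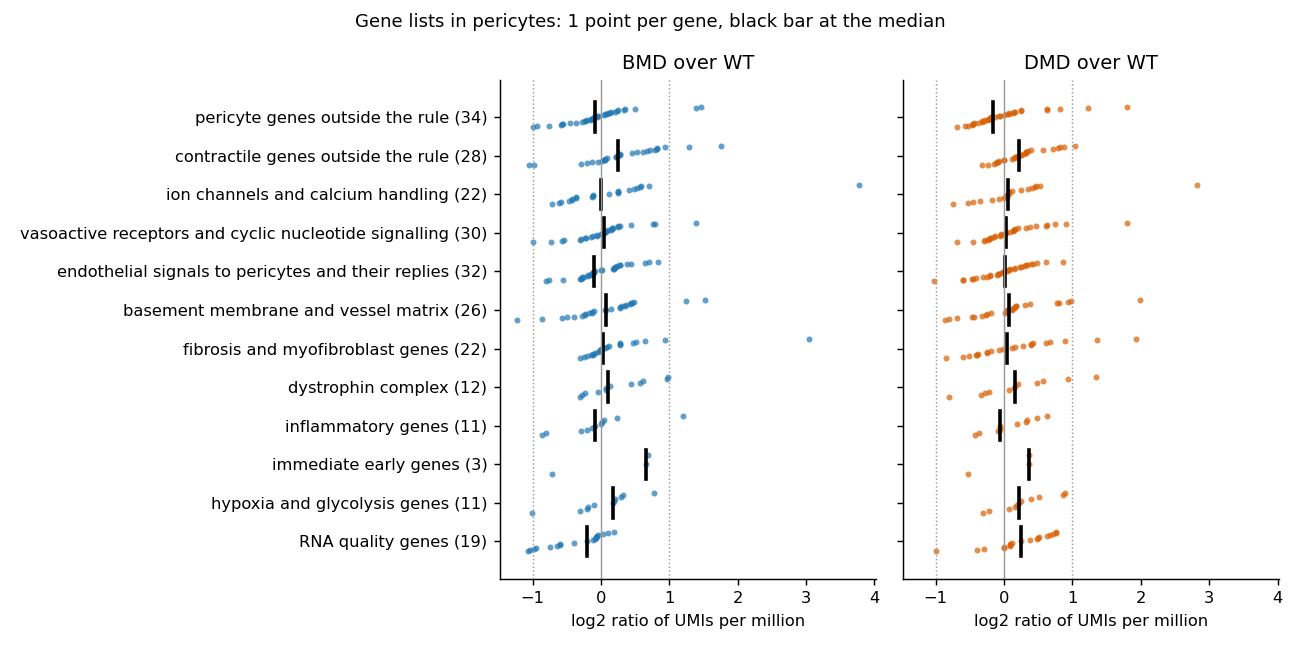
Log2 ratio of each gene with at least 50 UMIs in BMD over WT and in DMD over WT pericytes, by gene list, with the median of each list marked, 1 library per genotype. List medians lie between -0.20 and 0.25, apart from 0.65 and 0.37 for the 3 immediate early genes.

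Inflammatory genes had 11 members with medians of -0.09 and -0.05, and Nfkbiz was the 1 member past 2-fold, in BMD (15, 27 and 13 UMIs; 1.21, 0.24 to 2.22). Only 3 immediate early genes had at least 50 UMIs, with 0 past 2-fold. Hypoxia and glycolysis genes had 11 members with medians of 0.17 and 0.21. Txnip, a glucose-induced regulator of thioredoxin, had 167, 65 and 142 UMIs and had a BMD log2 ratio of -1.0 (-1.44 to -0.58), which was under 2-fold in 9 of 16 alternatives. P4ha1, a collagen prolyl hydroxylase, had 90, 80 and 124 UMIs and was high in DMD (0.86, 0.46 to 1.27). None of the 27 cell division genes in the files had 50 UMIs, so no ratio was taken. Their summed level was 54.9, 297 and 129 CPM in WT, BMD and DMD. How these UMIs spread over nuclei was not examined, and no difference in division is read from them.

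Signs of RNA quality differed between the libraries. Mitochondrial transcripts made up 0.865%, 0.818% and 1.24% of pericyte UMIs and 1.78%, 1.85% and 2.41% of those of all other nuclei, with DMD highest in both. The 19 RNA quality genes with at least 50 UMIs had medians of -0.20 in BMD and 0.25 in DMD, and 9 had a DMD interval above 0 (5.87% of all genes compared), among them Mt-co2 (1542, 1485 and 2393 CPM) and Mt-cyb (780, 797 and 1323 CPM). The BMD median ran from -0.69 to 0.35 over the alternatives and changed sign in 2 of them. With free RNA subtracted the DMD log2 ratios of Mt-co2 and Mt-cyb were -2.18 and -0.05, against 0.63 and 0.76. In BMD, Rpl35 and the ferritin chain Fth1 were past 2-fold lower (-1.04 and -1.07). Without nuclei over 5% mitochondrial UMIs, 187 ratios of named genes moved by less than counting error and 7 by more. The 7 were those of Mt-co2, Mt-co3 and Mt-cyb in both mutants and of Col12a1 in BMD, which was 1.86 in place of 3.05.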

How the data were processed

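Libraries were made with the 10x Genomics 3′ v3.1 kit per the labels and the study's methods, while its results text names the 5′ technology, and sequenced on a NextSeq 500. The choice of end was not checked here. The deposited values are UMI counts for each gene and barcode, not normalized, which the authors made with Cell Ranger (version 4 for BMD and DMD and 6.0.1 for WT per the file headers) on the rat genome rn6 per the labels. WT counts came from an aggregate of the 3 libraries, in which BMD and DMD counts were thinned to 76.1% and 92.9% of those in their own files, and whether WT was thinned there is not given in the sources used here. The files held 22250 genes, and 1536173, 1661542 and 1880292 barcodes for WT, BMD and DMD.

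The barcodes with most UMIs were kept as nuclei, up to the number the study used, the rule for pericytes was applied to each nucleus, and UMIs were summed over members and divided by their total (CPM). Gene ratios had no pseudocount, needed 50 UMIs over the 3 libraries and carry exact conditional intervals, shares carry Clopper-Pearson intervals, and all intervals are at 95%. A pseudocount of 20 CPM was used only to rank pericytes against smooth muscle nuclei. Thinned shares drew 500 UMIs per nucleus, and 0 pericytes were too shallow. Free RNA was read from barcodes with at most 50 UMIs. Smooth muscle nuclei had the 2 mural sums exchanged. Endothelial and fibroblast nuclei had at least 4 UMIs of their own 3 genes and at most 1 UMI of each other sum.

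Named genes were those of the rule, the 10 highest and 10 lowest in each comparison by the interval end nearer 1, up to 4 per list by abundance and interval, and 15 per side against smooth muscle nuclei. Genes named beside these, such as Ano1, Nrp1, Cdh2, Col4a3, Col4a4, Fth1 and Rpl35, were chosen after their values were seen. The members, lists and comparisons were chosen with earlier results of these data known. Python 3.11.15, NumPy 2.4.6, SciPy 1.17.1, pandas 2.3.3, scanpy 1.11.5 (Scrublet), matplotlib 3.10.9, R 4.3.3 and edgeR 4.0.16 (TMM factors) were used, and the ratio and interval steps were tested on simulated data. Alternatives covered the UMI minimum, depth, mitochondrial share, doublets, thinning, the aggregate, free RNA, scaling, the gene minimum, the pseudocount and the fibroblast limit. Values of 3 genes and of the glial list are not reported here.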

Additional observations from a re-analysis of the deposited data

How the results depend on the processing

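With 1 library per genotype, no replicate could be left out. No paired analysis was possible because each genotype was 1 library. Of the alternatives, 13 were planned. The other 3 were chosen after seeing the data: no fibroblast limit, without the nucleus with most UMIs of each gene, and without nuclei with at least 5 Gpc6 UMIs. Ratios of 100 named genes were followed through them, and 58 of these ratios were past 2-fold. Genes with few UMIs gave no value in several alternatives, which therefore could not count against them. In BMD, Trpc6 had a value in 8 of 16 and Nppa in 9. Of the 58, 36 stayed past 2-fold in every alternative that gave a value, and 0 changed sign. Not past it throughout were Col4a5, Dnajc8, Dock8, Gpc6, Itm2c, Mark1, Nfkbiz, Ptn, Sorbs2, Tmem132d and Txnip in BMD and Apaf1, Astn2, Dysf, Gfra2, Gpc6, Gpm6a, Hgf, Mpzl1, Rgs7bp, Timp2 and Tmem132d in DMD. Of the values of named genes under alternatives, 2784 moved by less than counting error and 106 by more. Counting error was the gene's own main interval, which is wide for genes with few UMIs. The alternatives also share nuclei with the main setting, so small moves are a weak check. Of the list medians under alternatives, 383 moved by less than counting error and 1 by more, and 16 of the 24 medians changed sign in at least 1 alternative.

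The shares in WT, BMD and DMD were 4.49%, 4.02% and 3.78% with a minimum of 3 UMIs, 2.39%, 2.31% and 2.24% with 6 UMIs, 1.72%, 2.27% and 1.99% among barcodes with at least 1000 UMIs, 2.70%, 1.92% and 2.19% after thinning to 500 UMIs, and 4.92%, 4.73% and 4.75% with no fibroblast limit. The share was 3.72% in DMD without nuclei over 5% mitochondrial UMIs and 2.97% in BMD with counts from the aggregate. The differences from WT turned to 0.555 points in BMD and 0.276 points in DMD with at least 1000 UMIs, and the cause was not tested.

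Genes at least 2-fold higher in BMD, lower in BMD, higher in DMD and lower in DMD numbered 19, 46, 27 and 34 after thinning, 21, 20, 13 and 16 with a minimum of 100 UMIs per gene, where fewer genes were compared, and 32, 37, 24 and 23 with a pseudocount of 20 CPM. With free RNA subtracted, 149 were higher and 117 lower in BMD, and 140 higher and 119 lower in DMD. With no fibroblast limit, 103 were higher and 127 lower in BMD, and 121 higher and 84 lower in DMD. With at least 1000 UMIs, 45 were higher and 56 lower in BMD. Gpc6 had log2 ratios of 0.91 and 0.75 with no fibroblast limit, and Dock8 -0.91 in BMD there. At this depth the interval of the BMD log2 ratio of Trpc6, with 3 UMIs in WT, ran from 2.10 to 6.12.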
